A study of Homo sapiens with 3 samples.

Results

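The 10 genes described here belong to the Hippo pathway: the coactivators WWTR1 (TAZ) and YAP1 (YAP), their DNA-binding partners TEAD1, TEAD2, TEAD3 and TEAD4, and the kinases LATS1, LATS2, STK3 (MST2) and STK4 (MST1). They were chosen by name, as the core of the pathway, with earlier results of these data known. Each had exactly 1 row among the 39320 gene rows that lay on the main chromosomes in all 3 gene tables. The data are polyA RNA-seq of 3 libraries that share 1 untreated, wild-type condition and carry the label HepG2, the name of a cell line from a human liver tumor. Nothing in the labels says whether the replicates came from separate cultures, so the spread between them may be technical. Each table gave the coverage, FPKM and TPM of a gene, where TPM and FPKM are levels per length of transcript that are scaled for library size, and coverage is a depth over the gene that is not scaled for library size. How coverage was averaged over the transcripts of a gene is not stated, and it was not proportional to FPKM across genes, so coverage is given beside TPM as a check and not as an equal measure of RNA level. The number of reads was not given, and by the relative depth that coverage and FPKM imply, replicate 1 was the deepest library (1.16 times replicate 3) and replicate 2 the next (1.12 times). A lower level in such bulk RNA may mean fewer cells with the transcript or less RNA per cell, and these cannot be told apart.

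The Hippo pathway is a kinase cascade that limits organ size, and in the liver it is best known for restraining hepatocyte growth and tumor formation. MST kinases, held by the scaffold SAV1, activate LATS kinases, which with MOB1 proteins phosphorylate YAP and TAZ and thereby keep them in the cytoplasm or mark them for degradation. Unphosphorylated YAP and TAZ enter the nucleus, bind TEAD proteins and switch on growth genes. This control acts mainly on proteins, so an RNA level does not measure pathway activity. WWTR1 was also one of the METTL3 downstream genes that the study followed by RT-qPCR in transfected cells, and those cells were not analysed here.

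The label of the libraries was checked against marker genes. A list of 20 liver secretory genes summed to only 36.0, 34.0 and 34.7 TPM in replicates 1, 2 and 3. No more than 2 of them, VTN at 23.3 ± 0.560 TPM and RBP4 at 11.0 ± 0.508 TPM (SD, n = 3), reached 1 TPM, and 12 were listed at 0 throughout, the albumin gene ALB among them. AFP, the fetal liver protein that HepG2 is known for, was listed at 0, 0.0239 and 0.0248 TPM. All 15 housekeeping genes reached at least 10 TPM in every library. The 8 epithelial genes summed to between 4573 and 4831 TPM, nearly all of it from the keratins KRT8 and KRT18, but their median was 0.590 TPM. CLDN4 had a mean of 57.1 TPM and CDH1 of 1.02 TPM, while KRT19, EPCAM, CLDN3 and ESRP1 were below 1 TPM in every library, ESRP1 at 0. The 8 mesenchymal genes summed to between 711 and 804 TPM, mostly from VIM, with a median of 6.32 TPM. The means were 27.1 TPM in CDH2, 11.6 in ZEB1, 6.93 in COL1A1, 5.72 in TWIST1 and 0.908 in FN1, while COL1A2 had at most 0.0457 TPM and SPARC was listed at 0. Of 8 endothelial genes, VWF alone passed 1 TPM, with 1.36 ± 0.125 TPM (SD, n = 3). CD68 did so alone among 8 blood genes, with 9.41 ± 0.965 TPM (SD, n = 3). Most secreted liver markers were thus listed below 1 TPM, 12 of them at 0, which puts the label in doubt. Every value below belongs to libraries labelled HepG2.

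**Figure D1:**
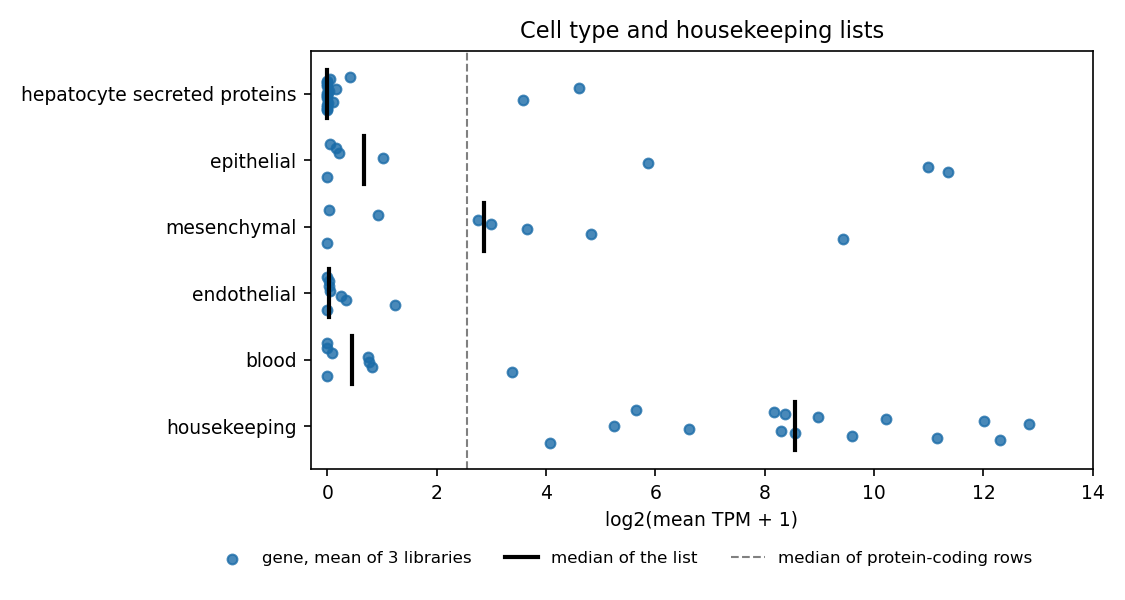
Mean TPM over 3 libraries, on a log2(TPM + 1) axis, for each gene of the cell type and housekeeping lists. Bars mark the median of a list and the dashed line the median of all protein-coding rows (4.91 TPM). The hepatocyte list sits at or near 0 apart from RBP4 and VTN, while the housekeeping list lies to the right of the dashed line.

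Each of the 10 Hippo genes reached 1 TPM in every library. The same was true of 59.5% of 19323 rows of protein-coding genes and of 33.8% of all 39320 rows. At least 10 TPM in every library was reached by 9 of the 10, the exception being LATS1, and by 40.3% of protein-coding rows. The median of their mean levels was 34.9 TPM, against 4.91 TPM over protein-coding rows. It was 15.4 TPM over the 13753 genes of any type whose mean was 1 TPM or more. The level spanned a 13.3-fold range, from 9.83 TPM in LATS1 to 131 TPM in TEAD1. Among the 13753 genes whose mean was 1 TPM or more, the 10 genes ran from the 38.4th percentile to the 92.0th. Without this filter on low values, the percentiles ran from 78.4 in LATS1 to 97.2 in TEAD1.

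**Figure D2:**
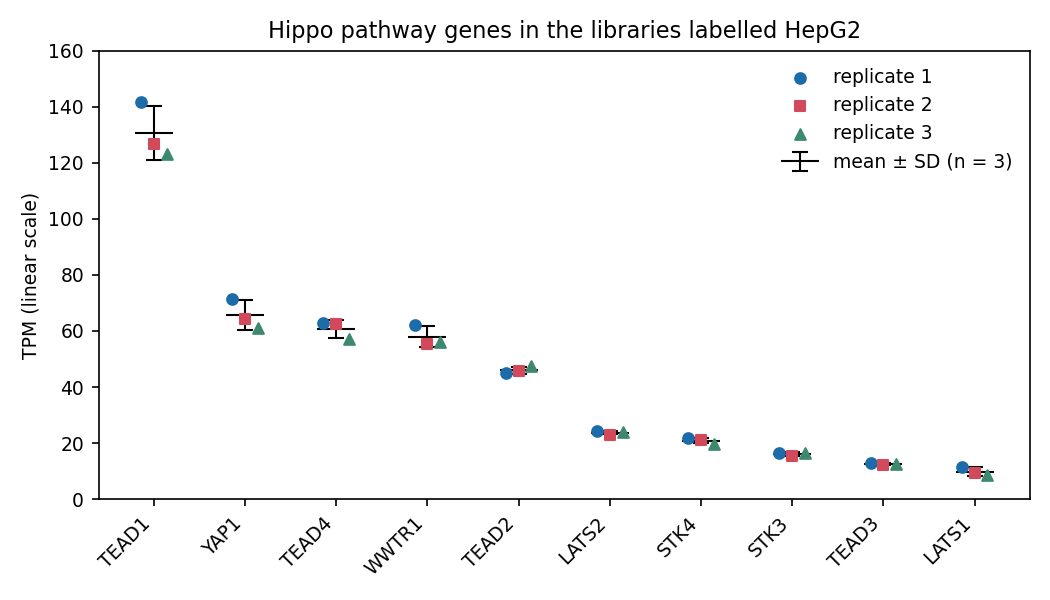
TPM of the 10 Hippo genes in each library, ordered by mean, with the mean and SD of 3 libraries. TEAD1 stands above the others in every library. The ranges of YAP1, TEAD4 and WWTR1 overlap between 61.2 and 62.2 TPM, and the kinases and TEAD3 lie at or below 24.3 TPM.

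The 2 coactivators were expressed at similar levels by TPM. WWTR1, on the minus strand of chromosome 3 (chr3:149517229-149724788, GRCh38), had 62.2, 55.4 and 56.1 TPM in replicates 1, 2 and 3, a mean of 57.9 ± 3.73 TPM (SD, n = 3). YAP1, on the plus strand of chromosome 11 (chr11:102109957-102233424), had 71.6, 64.2 and 61.2 TPM, a mean of 65.7 ± 5.33 TPM (SD, n = 3). Replicate 1 was the highest library for both genes, and the lowest YAP1 value fell below the highest WWTR1 value, so their ranges overlapped between libraries. By TPM, though not by coverage, WWTR1 was lower than YAP1 within each library, by log2 ratios of -0.20, -0.21 and -0.12 on the TPM + 1 scale. The mean log2 ratio was -0.18 ± 0.05 (SD, n = 3; two-sided exact sign-flip permutation test, p = 0.25). This is the smallest p that this test allows with 3 libraries, so no ratio between paralogs could pass 0.05 by it, no other test was run, and after Benjamini-Hochberg adjustment over the 9 pairs tested p was 0.25 for each. By rank, YAP1 was 2306th and WWTR1 2599th of the 13753 genes.

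The tables also hold a row named TAZ, which is a different gene. It lies on chromosome X (chrX:154411518-154421726) and ends at the same base as TAFAZZIN, the gene of a mitochondrial cardiolipin enzyme for which RefSeq lists TAZ as a synonym. This row had 27.5, 30.5 and 29.9 TPM in replicates 1, 2 and 3, a mean of 29.3 ± 1.58 TPM (SD, n = 3). Every library had less of it than of WWTR1, and a search for TAZ by name alone would return this value in place of 57.9 TPM.

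The order of the coactivators depended on the scale. By coverage WWTR1 had 336, 293 and 265 in replicates 1, 2 and 3, and YAP1 had 116, 102 and 87.3. WWTR1 was the higher in every library on this scale, and the groups of values did not overlap. The log2 ratio of WWTR1 to YAP1 on the coverage + 1 scale was 1.54 ± 0.04 (SD, n = 3), opposite in direction to the ratio by TPM. Set against the library's maximum of coverage divided by FPKM, YAP1 stood at 0.259 and WWTR1 at 0.861 on average over 3 libraries. RefSeq lists 14 transcripts for YAP1 and 9 for WWTR1, and the part of transcript choice in the difference was not tested. YAP1 was thus the higher by TPM and FPKM and WWTR1 the higher by coverage, which serves here as a check and not as an equal measure.

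**Figure D3:**
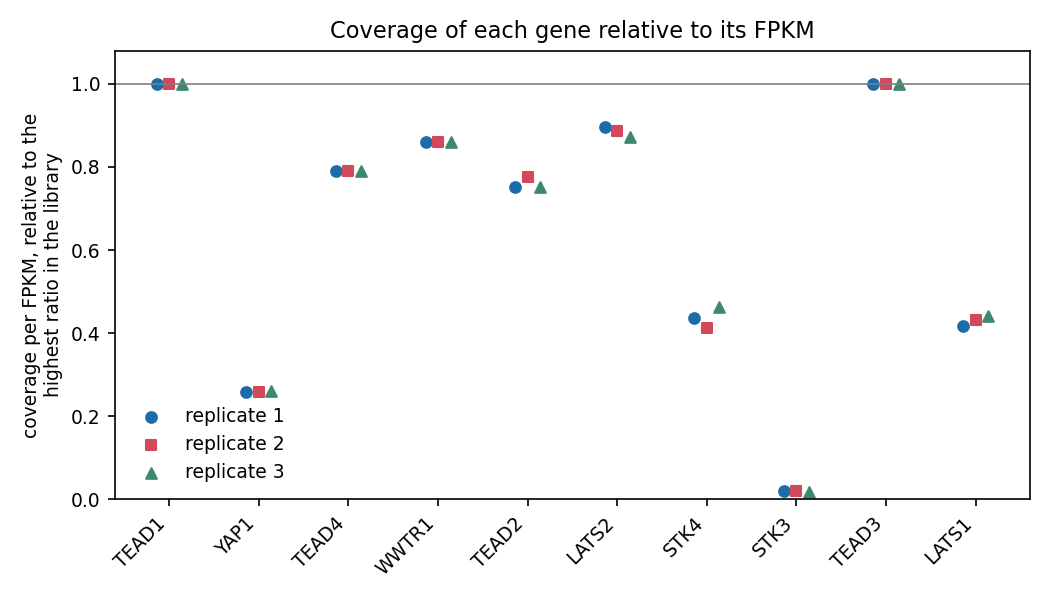
Ratio of coverage to FPKM for each Hippo gene in each library, relative to the highest ratio in that library, so that 1 is the maximum. TEAD1 and TEAD3 sit at 1, YAP1 near 0.259 and STK3 near 0.0189, with the 3 libraries close together for every gene.

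TEAD1 was the main TEAD transcript. It had 142, 127 and 123 TPM in replicates 1, 2 and 3, a mean of 131 ± 9.73 TPM (SD, n = 3), which placed it 1106th of 13753 genes. TEAD4 followed with 62.9, 62.5 and 57.1 TPM and a mean of 60.8 ± 3.24 TPM (SD, n = 3). TEAD2 had 44.95, 45.7 and 47.5 TPM and a mean of 46.0 ± 1.28 TPM (SD, n = 3). TEAD3, the lowest, had 12.7, 12.2 and 12.7 TPM and a mean of 12.5 ± 0.283 TPM (SD, n = 3). No value of one TEAD gene overlapped with that of another, and the order was the same in each of the 3 libraries. All 4 encode proteins with the same type of DNA-binding domain and bind the same short DNA element, and all depend on a coactivator such as YAP or TAZ.

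Of the summed TPM of the 4 genes, 250.01 ± 11.1 TPM (SD, n = 3), TEAD1 made up 52.2% ± 1.58, TEAD4 24.3% ± 0.824, TEAD2 18.5% ± 1.29 and TEAD3 5.02% ± 0.222 (SD, n = 3). The sum of the TEADs was above the sum of YAP1 and WWTR1, which was 124 ± 8.90 TPM (SD, n = 3). The log2 ratio of TEAD1 on the TPM + 1 scale was 1.09 ± 0.07 to TEAD4, 1.48 ± 0.14 to TEAD2 and 3.28 ± 0.10 to TEAD3 (SD, n = 3), each with the same direction in 3 of 3 libraries. TEAD4 was above TEAD2 by 0.39 ± 0.12 and above TEAD3 by 2.19 ± 0.09, and TEAD2 was above TEAD3 by 1.80 ± 0.05 on the same scale (SD, n = 3). By coverage the order of the 4 genes was the same, and the share of TEAD1 was 57.7% ± 1.61 (SD, n = 3).

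The rows of the TEAD genes lie on chromosome 11 for TEAD1 (chr11:12674421-12944737, plus strand), chromosome 12 for TEAD4 (chr12:2959312-3040676, plus strand), chromosome 19 for TEAD2 (chr19:49340595-49362457, minus strand) and chromosome 6 for TEAD3 (chr6:35473597-35497079, minus strand). The spans of TEAD1 and TEAD3, and also that of LATS2, were identical to those of their main transcripts in GENCODE v44 (MANE Select). TEAD1 and TEAD3 were at the maximum ratio of coverage to FPKM in every library, to within rounding, and RefSeq lists 1 transcript for TEAD1 and 2 for TEAD3. TEAD2, with 42 RefSeq transcripts, stood at 0.760 of the maximum and TEAD4, with 3, at 0.790 on average over 3 libraries, while LATS2, with 7, stood at 0.885.

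LATS2 had more RNA than LATS1. It had 24.3, 23.0 and 23.9 TPM in replicates 1, 2 and 3, a mean of 23.7 ± 0.651 TPM (SD, n = 3). LATS1 had 11.5, 9.27 and 8.69 TPM, a mean of 9.83 ± 1.501 TPM (SD, n = 3). All 3 LATS2 values lay above all 3 LATS1 values, and the log2 ratio of LATS1 to LATS2 was -1.20 ± 0.17 on the TPM + 1 scale (SD, n = 3; two-sided exact sign-flip permutation test, p = 0.25). By coverage the ratio was -2.28 ± 0.13 (SD, n = 3), in the same direction. LATS1 was the most variable of the 10 genes, with a coefficient of variation of 15.3%, and replicate 1 was its highest library. LATS2 (chr13:20973036-21061586) and LATS1 (chr6:149658153-149718256) both lie on the minus strand.

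The MST kinases were closer together by TPM. STK4 had 21.7, 21.2 and 19.7 TPM in replicates 1, 2 and 3, a mean of 20.9 ± 1.02 TPM (SD, n = 3). STK3 had 16.4, 15.4 and 16.5 TPM, a mean of 16.1 ± 0.608 TPM (SD, n = 3). The values of the 2 genes did not overlap, and the log2 ratio of STK3 to STK4 was -0.36 ± 0.10 on the TPM + 1 scale (SD, n = 3; two-sided exact sign-flip permutation test, p = 0.25). By coverage STK3 had only 2.02, 1.77 and 1.66, against 59.3, 53.7 and 50.2 for STK4. The log2 ratio on the coverage + 1 scale was -4.30 ± 0.03 (SD, n = 3), so the size of the difference, though not its direction, depended on the scale.

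STK3 had the lowest ratio of coverage to FPKM of the 10 genes, at 0.0189 of the maximum on average. By mean coverage it was at the 1.99th percentile of the 13753 genes, and by mean TPM at the 51.2nd. Its row spans 511 kb (chr8:98433048-98944329, minus strand), which is 140 kb longer than the MANE Select transcript of 11 exons and 2833 nt. The row of WWTR1 was likewise 66.8 kb longer than its MANE Select transcript, yet WWTR1 stood at 0.861 of the maximum. STK4 (chr20:44966470-45080021, plus strand) stood at 0.437 and LATS1 at 0.430. The part of long or numerous transcripts in these ratios was not tested, and the number of reads behind the TPM of STK3 is not given.

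**Figure D4:**
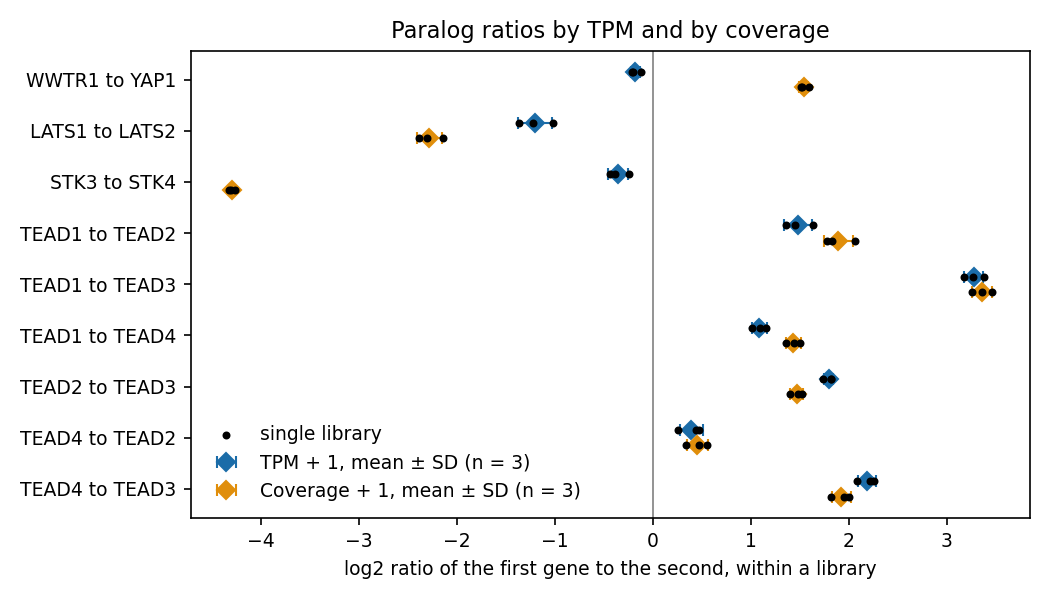
Log2 ratio of each paralog pair within a library, by TPM + 1 and by coverage + 1, with the mean and SD of 3 libraries (diamonds) and single libraries (black points). WWTR1 to YAP1 lies at -0.18 by TPM and 1.54 by coverage, the only pair of the 9 that changes side, and STK3 to STK4 moves from -0.36 to -4.30.

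By mean TPM the order was TEAD1, YAP1, TEAD4, WWTR1, TEAD2, LATS2, STK4, STK3, TEAD3 and LATS1. Each gene was above the next in 3 of 3 libraries. Over all libraries, the ranges of YAP1 and TEAD4 overlapped, as did those of TEAD4 and WWTR1, and those of the other neighbours did not. By mean coverage, WWTR1 moved to second place and overlapped with TEAD4, YAP1 moved to sixth place and overlapped with LATS2, and STK3 was last.

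The Hippo genes varied between libraries about as much as other genes. The range of log2(TPM + 1) over the 3 libraries was at most 0.37, in LATS1, and 0 of the 10 genes had a range above 1, against 0.273% of the 8419 genes whose mean was 10 TPM or more, a limit that LATS1, with a mean of 9.83 TPM, did not reach. Their coefficient of variation ran from 2.26% in TEAD3 to 15.3% in LATS1, with a median of 5.12%, while that of the 8419 genes was 4.88%. Replicate 1 was the highest library for 8 of the 10 genes, all but TEAD2 and STK3. It was also the highest for 62.5% of the 8419 genes, and it had the highest relative depth. The part of depth in these values was not tested.

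Rows of 7 other genes overlapped a Hippo gene, and the strand setting of the quantification was not given in the sources used here, so reads of antisense neighbours cannot be told apart from those of the Hippo gene. WWTR1-AS1, an antisense RNA within WWTR1, had 0.926, 0.811 and 0.715 TPM in replicates 1, 2 and 3. CD37 shares 14 bp with the end of TEAD2 and had 1.88 ± 0.191 TPM, and DKKL1 shares 1938 bp with TEAD2 and had 0.837 ± 0.104 TPM (SD, n = 3). The other 4 rows, within or across TEAD1, LATS1 and STK3, had at most 0.397 TPM in any library. None of the 7 exceeded 2.05 TPM in any library, and YAP1, TEAD3, TEAD4, LATS2 and STK4 had no overlapping row.

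The partners of the kinases were all detected. Each of the 10 on this list reached 1 TPM in every library, as did 59.5% of protein-coding rows, and their median was 28.5 TPM. MOB1A and MOB1B encode the cofactor that LATS kinases need. MOB1A was the highest of the list at 52.3 ± 2.80 TPM and MOB1B the lowest at 6.64 ± 0.748 TPM (SD, n = 3). SAV1, the scaffold of MST kinases, had 26.8 ± 1.37 TPM (SD, n = 3). NF2, the gene of merlin, which brings LATS to the membrane, had 20.1, 23.9 and 17.8 TPM in replicates 1, 2 and 3. TAOK3, a kinase that can activate MST kinases, had 40.6 ± 2.01 TPM, and STK38L, a kinase related to LATS, had 14.8 ± 0.938 TPM (SD, n = 3).

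Regulators at cell junctions and the membrane were mixed. Of 15 genes, 12 reached 1 TPM in every library, against 59.5% of protein-coding rows, and the median was 14.5 TPM. AMOTL2, an angiomotin that binds YAP and TAZ, was the highest at 111 ± 4.41 TPM (SD, n = 3), whereas AMOT, the founding member of the same family, was listed at 0 in every library. PALS1, a polarity protein named MPP5 in the tables, had 58.4 ± 3.11 TPM (SD, n = 3). The atypical cadherins were low: FAT4 had between 0.817 and 0.937 TPM and DCHS1 between 0.0125 and 0.0301 TPM.

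Genes that act against the kinases were also expressed. All 7 had at least 1 TPM in every library, as did 59.5% of protein-coding rows, and their median was 18.3 TPM. AJUBA, a LIM protein that inhibits LATS, stood out with 80.3, 78.4 and 78.2 TPM in replicates 1, 2 and 3. Its mean TPM was above that of all 10 Hippo genes except TEAD1. Its coverage of 273, 259 and 232 was also below that of WWTR1 and TEAD4 in every library. WTIP, another LIM protein, had 7.05 ± 0.632 TPM and STRN3, a subunit of a phosphatase complex that switches off MST kinases, 7.02 ± 0.407 TPM (SD, n = 3).

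Genes for the retention and turnover of YAP and TAZ were the most abundant of the pathway lists. All 11 reached at least 10 TPM in every library, as did 40.3% of protein-coding rows, and their median was 220.1 TPM. The list holds the 14-3-3 genes, whose proteins bind phosphorylated YAP and TAZ in the cytoplasm and have many other partners. YWHAE had 750.3 ± 51.5 TPM and YWHAZ, which is also on the housekeeping list, 502 ± 37.8 TPM (SD, n = 3). The genes of the F-box proteins that direct degradation were the lowest, with 32.4 ± 1.49 TPM for FBXW11 and 17.0 ± 0.442 TPM for BTRC (SD, n = 3). Of the 4 VGLL cofactors, which bind TEADs in competition with YAP and TAZ or in their place, VGLL4 had 22.8 ± 1.40 TPM and VGLL3 had 11.2 ± 1.23 TPM (SD, n = 3). Their order turned by coverage, with 48.2, 39.7 and 34.1 for VGLL3 against 8.50, 7.67 and 6.63 for VGLL4. VGLL1 and VGLL2 were listed at 0 in every library.

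Genes that YAP and TAZ activate through TEADs were present without exception on the list used. All 22 had at least 1 TPM and 18 had at least 10 TPM in every library, with a median of 24.9 TPM. Of protein-coding rows, 59.5% had at least 1 TPM and 40.3% at least 10 TPM in every library. MYOF, a membrane repair protein, was the highest by TPM at 220.5 ± 13.9, followed by IGFBP3, which binds insulin-like growth factors, at 139.5 ± 9.57 TPM (SD, n = 3). IGFBP3 was above MYOF by coverage in every library, with 937, 809 and 741 against 760, 677 and 595. CCN1, a matrix protein and a standard readout of YAP activity, had 85.6, 79.1 and 83.5 TPM in replicates 1, 2 and 3. CCN2, its relative, had 73.7, 64.1 and 66.1 TPM. ANKRD1, a nuclear cofactor best known in muscle, was lower, with 12.8, 10.9 and 11.5 TPM. AXL, a receptor tyrosine kinase, had 13.6 ± 0.769 TPM (SD, n = 3). The lowest by TPM were TGFB2 at 4.06 ± 0.249 TPM and RBMS3 at 2.597 ± 0.413 TPM (SD, n = 3). RBMS3 was also the lowest by coverage, but TGFB2, with 26.5, 24.0 and 20.6, was above ARHGEF17 of the same list, with 23.2, 22.2 and 20.2. LATS2, AMOTL2 and PTPN14 stand on this list and also limit YAP and TAZ. These genes have other regulators, and with 1 condition their levels do not measure the activity of YAP, TAZ or TEADs.

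Over all pathway lists, each gene counted once and the 10 Hippo genes left out, 61 of 66 genes (92.4%) reached 1 TPM in every library, against 59.5% of protein-coding rows. Their median was 26.3 TPM. The 5 others were AMOT, FAT4, DCHS1, VGLL1 and VGLL2, of which FAT4 passed 1 TPM in every library once mitochondrially encoded genes were left out of the scaling. The lists were chosen with earlier results of these data known, so these shares only describe the listed genes.

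**Figure D5:**
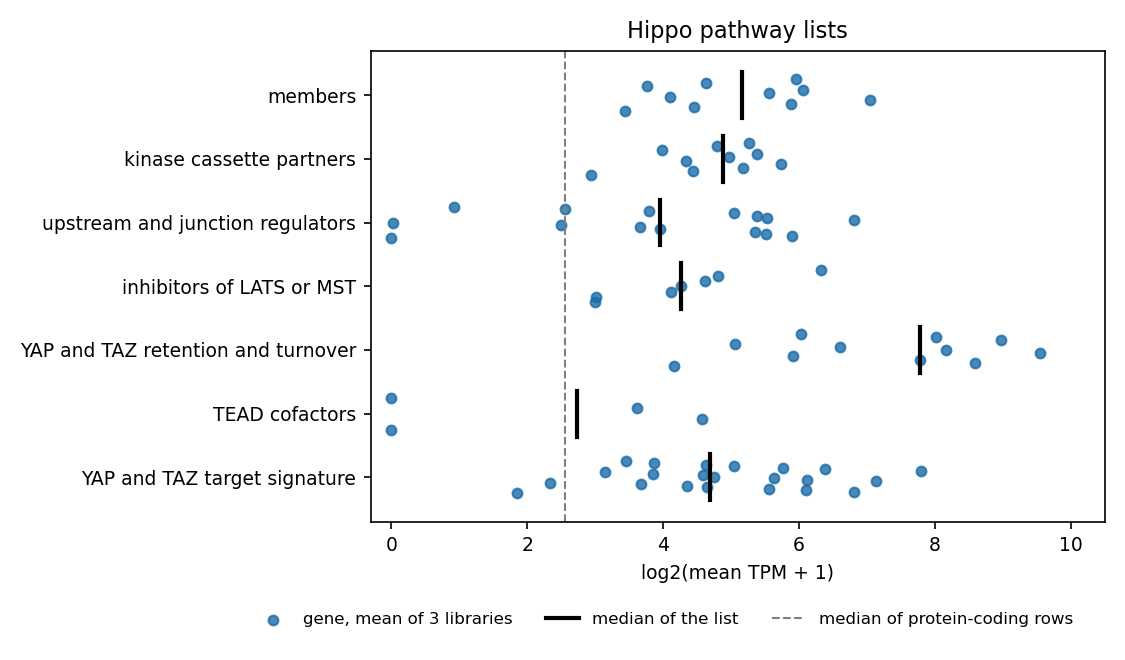
Mean TPM over 3 libraries, on a log2(TPM + 1) axis, for each gene of the Hippo pathway lists. Bars mark the median of a list and the dashed line the median of protein-coding rows (4.91 TPM). All lists have their median to the right of the dashed line, and the genes at 0 are AMOT, VGLL1 and VGLL2, with DCHS1 beside them at 0.0191 TPM.

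TEAD proteins recognise the hexamer GGAATG, and the promoters of classical target genes carry it. The windows of 300 bases around gene starts in RefSeq (GRCh38.p14) were searched for GGAATG and its reverse complement CATTCC on both strands. It was present in 14.03% of 35116 windows. Of the 22 target genes, 16 had a window, and 9 of their 18 windows held the hexamer. CCN2 had 3 matches, and ANKRD1 and NUAK2 had 2 each. Of the 10 Hippo genes, 7 had a window, and 2 of their 10 windows, those of YAP1 and LATS2, held the hexamer. LATS2, which is also on the target list, had its match 9 bases after the start. The 2 windows of WWTR1 held no match. A match describes these letters in this window and shows no binding. The 250 bases before the start are printed for the 2 standard readout genes with more than 1 match and for YAP1, 5′ to 3′ on the strand of the gene, with each match in capitals. They are chr6:131951373-131951622 (minus strand) for CCN2, chr10:90921088-90921337 (minus strand) for ANKRD1 and chr11:102110197-102110446 (plus strand) for YAP1.
CCN2: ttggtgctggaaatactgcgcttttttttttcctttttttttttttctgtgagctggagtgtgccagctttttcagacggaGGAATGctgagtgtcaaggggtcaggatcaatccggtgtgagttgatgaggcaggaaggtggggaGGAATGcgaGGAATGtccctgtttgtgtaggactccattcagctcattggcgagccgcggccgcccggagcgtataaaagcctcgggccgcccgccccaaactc
ANKRD1: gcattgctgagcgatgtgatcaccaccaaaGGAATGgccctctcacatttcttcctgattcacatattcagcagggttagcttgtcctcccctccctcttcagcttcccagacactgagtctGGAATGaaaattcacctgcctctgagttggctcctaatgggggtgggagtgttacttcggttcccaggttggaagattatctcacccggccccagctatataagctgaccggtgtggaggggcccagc
YAP1: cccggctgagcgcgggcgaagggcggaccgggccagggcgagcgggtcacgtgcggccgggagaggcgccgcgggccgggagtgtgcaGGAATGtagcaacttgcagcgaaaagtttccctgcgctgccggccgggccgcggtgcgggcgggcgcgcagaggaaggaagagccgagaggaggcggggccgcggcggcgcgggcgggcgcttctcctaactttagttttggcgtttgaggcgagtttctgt

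These starts are those of RefSeq. The measured rows of YAP1 and ANKRD1 begin before them, so the whole stretch of YAP1 and most of that of ANKRD1 lie within the rows, while that of CCN2 lies outside its row. The matches of CCN2 begin 169, 104 and 95 bases before the start, those of ANKRD1 220 and 128 bases before it, and that of YAP1 162 bases before it. By mean TPM, CCN2 was at 68.0 ± 5.03 TPM and ANKRD1 at 11.8 ± 0.964 TPM (SD, n = 3). No relation between matches and level was tested.

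The genes of the pathway lists whose levels lay nearest to those of the coactivators were named by the Euclidean distance of log2(TPM + 1) over 3 libraries, among 66 candidates. For WWTR1 they were PALS1 at a distance of 0.03, CSNK1E, a casein kinase, at 0.12 and MOB1A at 0.25. For YAP1 they were CCN2 at 0.12, CRIM1, a transmembrane protein on the target list, at 0.13 and CSNK1D, another casein kinase, at 0.20. With 3 libraries of 1 condition this distance reflects the level alone.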

How the data were processed

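RNA-seq of 3 libraries labelled as wild-type HepG2 replicates was analysed. Reads of 150 bp, paired-end, had been filtered by the authors with FastQC 0.11.8 and Trim Galore 0.6.2 and mapped to GRCh38 with STAR 2.6.1a. StringTie is named in the submitters' processing notes without a version or role. The annotation and strand setting are not given in the sources used here. The TPM, FPKM and coverage (mean depth) values were used as deposited by the authors, with 1 table per library. The tables hold no read counts, so no counting error is known. Relative depth was inferred from coverage and FPKM, and absolute depth was not calculated.

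Rows that agreed in name, strand and position in all tables (43389) were kept, and the 39320 on main chromosomes were used. RefSeq names matched 35978 rows and gave 19323 protein-coding rows. TPM was rescaled nowhere in the main values. Mitochondrially encoded genes took 19.9%, 20.2% and 20.2% of TPM in replicates 1, 2 and 3, which lowers all other TPM. Ratios between paralogs used a pseudocount of 1 and an exact permutation test (two-sided, by sign flips over 3 libraries) with Benjamini-Hochberg adjustment over 9 pairs. The range calculation, the exact test and the scaling were tried on simulated data. The 10 genes, the lists and the tests were chosen with earlier results of these data known. Beyond the 10 genes, those named were the 2 highest and 2 lowest of each pathway list, a set chosen by name (CCN1, CCN2, ANKRD1, AXL, VGLL4, NF2, SAV1, MOB1A, MOB1B and TAFAZZIN), genes overlapping a Hippo gene, and the 3 genes nearest to WWTR1 and YAP1, and 1 gene that this rule names is not reported. FAT4, NUAK2, VTN, RBP4, the other marker genes named and the genes whose sequences are printed were chosen after their values were seen. No promoter window was at hand for TEAD1, TEAD4, STK3, CCN1, ASAP1, CRIM1, GADD45A, DOCK5 and ARHGEF17. Alternatives were other pseudocounts, minimums, scalings and scales, and leaving out each replicate. Calculations used matplotlib 3.10.9, pandas 2.3.3, scipy 1.17.1, numpy 2.4.6 and Python 3.11.15, with transcripts from GENCODE v44.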

Additional observations from a re-analysis of the deposited data

How the results depend on the processing

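Of the 9 ratios between paralogs, WWTR1 to YAP1 changed direction with coverage in place of TPM, to a log2 ratio of 1.54, and the other 8 kept theirs. The cause was not tested. FPKM, a pseudocount of 0.1 and leaving out a replicate could not reverse any of the 9, since FPKM and TPM differ by 1 factor per library and each ratio had 1 direction in all 3 libraries. Rescaling without mitochondrially encoded genes raised every mean by nearly the same factor, to 72.4 TPM for WWTR1, 82.2 for YAP1, 163 for TEAD1, 57.6 for TEAD2, 15.7 for TEAD3, 76.1 for TEAD4, 12.3 for LATS1, 29.7 for LATS2, 20.1 for STK3 and 26.1 for STK4, which follows from the smaller total. Median-of-ratios scaling moved all 10 means by less than 1 SD. The SDs themselves moved in both directions, for example from 1.28 to 2.57 TPM in TEAD2 and from 9.73 to 5.86 TPM in TEAD1. By coverage the shares among the TEADs were 57.7% for TEAD1, 21.3% for TEAD4, 15.5% for TEAD2 and 5.55% for TEAD3. The counts of genes on the 6 pathway lists and of the 10 Hippo genes stayed within 1.5 times under minimums of 0.1 and 10 TPM. Without mitochondrially encoded genes, the list of junction regulators rose from 12 to 13 genes, and the other counts were the same. All 10 percentiles moved with the filter on low values, and by coverage YAP1 fell to 64.6 and STK3 to 1.99. With each replicate left out, the mean ranged from 55.8 to 59.2 TPM for WWTR1, from 62.7 to 67.9 TPM for YAP1 and from 8.98 to 10.4 TPM for LATS1; with 3 values, dropping 1 always shifts the mean by under 1 SD, so the ranges are no evidence of stability. No paired analysis between groups was possible because there is a single group, and only the paralogs were compared within libraries. The number of reads is not given, so no exact upper limit was set for AMOT, VGLL1, VGLL2 and the marker genes listed at 0. Values as low as 0.00713 TPM, that of PECAM1 in replicate 3, were listed in the same libraries.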

Other observations

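The ratio of coverage to FPKM was also low in other pathway genes, chosen here after their values were seen. In replicate 1, relative to the highest ratio, MOB1B stood at 0.103 and VGLL4 at 0.0557, against 0.957 for MOB1A and 1 for CCN2 and ANKRD1. The coverage of VGLL4 was 8.50, 7.67 and 6.63 in replicates 1, 2 and 3, beside 22.8 ± 1.40 TPM (SD, n = 3). MOB1A was thus above MOB1B on both scales, by a wider margin on coverage, with 333, 297 and 268 against 4.78, 4.18 and 3.36. VGLL4, in contrast, was above VGLL3 by TPM but below it by coverage, where VGLL3 had 48.2, 39.7 and 34.1. The transcripts behind these values were not analysed here.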
